A study of Mus musculus with 58 samples.

Results

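The genes described here take fatty acids into skeletal muscle, store them as lipid droplets and burn them in mitochondria. They are 35 listed genes, chosen by symbol as a textbook pathway, and 30 of them had a named probe set among the 23185 named genes of the arrays. Fabp3, Acsl1, Cpt1b, Hadhb and Ucp2 were not analysed here. The 30 measured members cover uptake (Cd36, Slc27a1, Lpl, Angptl4), lipid droplets and lipolysis (Plin2, Plin5, Pnpla2, Lipe), the carnitine shuttle and its control (Cpt1a, Cpt2, Crat, Mlycd), acyl-CoA dehydrogenases (Acadvl, Acadl, Acadm, Acads), the later steps of beta-oxidation (Hadha, Echs1, Hadh, Acaa2), enzymes for unsaturated chains (Eci1, Eci2, Decr1), electron transfer (Etfa, Etfb, Etfdh), Ucp3 and the thioesterase Acot2, and the receptors Ppara and Ppard.

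Long-chain fatty acids enter a fibre through carriers such as CD36, are activated to acyl-CoA, and cross the inner mitochondrial membrane bound to carnitine. In the matrix each turn of the beta-oxidation spiral shortens the chain through a dehydrogenase, a hydratase, a second dehydrogenase and a thiolase, and electrons leave through the electron transfer flavoprotein. Oxidative muscle such as the diaphragm relies on this route more than the fast, glycolytic tibialis anterior, and the PPAR receptors switch on many of its genes when fatty acids are plentiful.

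The mice were adult female NSG mice, an immunodeficient strain without mature T, B and NK cells. In PDX mice, pieces of pancreatic ductal adenocarcinoma taken from 4 cachectic patients, in 4 cohorts, had been fixed to the pancreas. Sham mice of the same strain and cohort had the operation without a tumour, and mice were killed once those with tumours were severely cachectic or the tumour was large. Each muscle, the diaphragm and the tibialis anterior, had 17 arrays of PDX mice (3, 5, 5 and 4 in cohorts 1 to 4) and 12 arrays of sham mice (3 in each cohort). The labels do not state that every array came from its own animal, so the p-values cover only the spread among these arrays, which may be technical.

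All values are log2 expression values as deposited, on which a difference of 1 is a doubling. An array's median gene lay between 3.702 and 3.862. Differences are means over the 4 cohorts, given with their standard error (SE). A gene was called where limma's p, adjusted by Benjamini-Hochberg over all named genes, was under 0.05. Where counts at an unadjusted p under 0.05 are given, the share of all genes at that limit was not counted. Levels were set against each other only for the same gene.

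Markers of other cells differed between arrays. Skeletal muscle markers averaged at least 10.1 in every array. The mean of 15 hepatocyte markers, liver genes such as Alb, ran from 3.81 to 11.03 over PDX diaphragm arrays and from 3.69 to 10.61 over sham diaphragm arrays. It was more than 1 above the muscle's median in 11 of 29 diaphragm arrays (6 of PDX, 5 of sham mice) and in 4 of 29 tibialis anterior arrays (3 of PDX, 1 of sham mice). These are named arrays with hepatocyte RNA below. The limit is relative to each muscle, and the other diaphragm arrays were not all free of such RNA. Among them the marker mean reached 7.16, and Alb reached 10.71 in PDX and 10.75 in sham mice. Between PDX and sham, limma called 0 of 15 hepatocyte markers in either muscle, and 0 (diaphragm) and 1 (tibialis anterior) had an unadjusted p under 0.05. Adipocyte markers had a median mean of 4.88 in PDX diaphragm and 5.55 in sham diaphragm. All 9 of them had a negative difference in the diaphragm, of which 2 were called (median -0.593). Limma called 0 of 9 in the tibialis anterior (1 at an unadjusted p under 0.05), where the median difference was -0.0713. Of 8 macrophage markers, 7 rose in the diaphragm of PDX mice (median difference 0.944), while 1 rose and 2 fell in the tibialis anterior (median -0.213). Of 9 endothelial markers, 1 rose and 1 fell in the diaphragm (median 0.0536), and 2 rose and 1 fell in the tibialis anterior (median -0.117). In the diaphragm all 7 slow fibre markers had a negative difference, 1 of them called (median -0.327). So had all 8 skeletal muscle markers in the diaphragm, again with 1 called (median -0.114). Over tibialis anterior arrays, 2 of 8 skeletal muscle markers rose and 2 fell (median -0.0011). Limma called 0 of 7 slow fibre markers in the tibialis anterior (2 at an unadjusted p under 0.05). In whole muscle, fewer cells of a type and less RNA per cell cannot be told apart.

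In PDX mice 8 members fell in both muscles, most of them enzymes of beta-oxidation, and 6 rose in the tibialis anterior: the fatty acid carriers Cd36 and Slc27a1, the lipase Pnpla2, Mlycd, the beta-oxidation enzyme Echs1 and the thioesterase Acot2. In the diaphragm 12 of the 30 members fell and none rose, where 6.58% of all genes fell and 5.89% rose; 12.5% of all genes were called in either direction. Without adjustment, 17 diaphragm members had a p under 0.05, all of them lower. The share of all genes at that unadjusted limit was not counted. The median over members was -0.217, against -0.0043 over all genes. Over tibialis anterior arrays, 8 members fell and 6 rose, where 6.53% of all genes fell and 6.32% rose, and 12.8% were called in all. There the median over members was -0.0419, against -0.0051 over all genes. All 8 genes that fell in the tibialis anterior (Acaa2, Hadh, Acadvl, Eci1, Hadha, Acads, Cpt2 and Etfdh) also fell in the diaphragm, where they made up 66.7% of the 12. The 4 others that fell in the diaphragm were Plin5, Acadm, Etfa and Etfb. How many of all genes that fell in the tibialis anterior also fell in the diaphragm was not counted. Whether this overlap is particular to the members was therefore not tested.

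**Figure D1:**
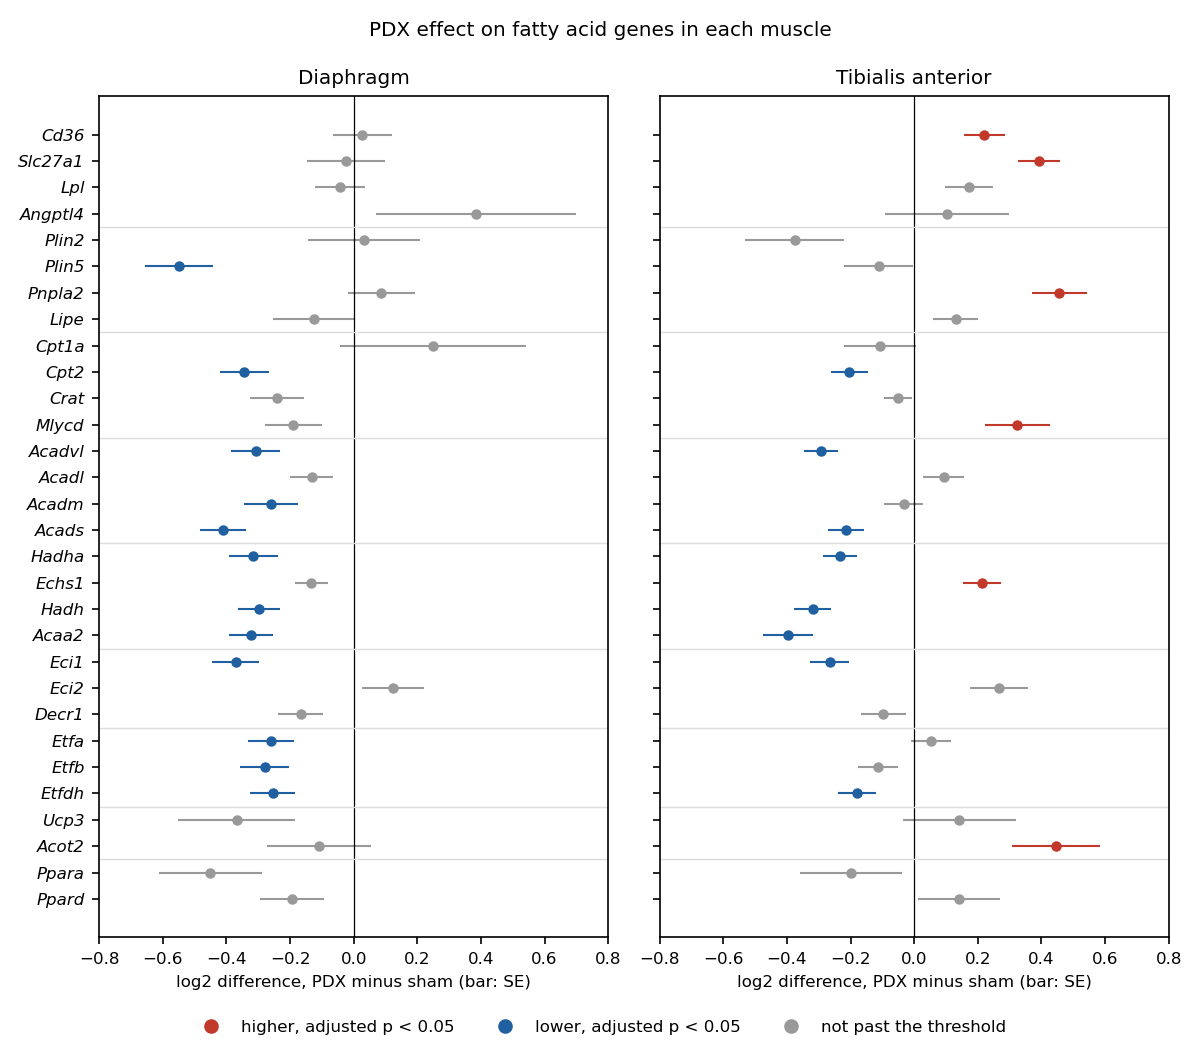
PDX minus sham in the diaphragm (left) and the tibialis anterior (right) for the 30 members, with the log2 difference on the x axis, SE bars, and colours for calls at an adjusted p under 0.05. The 12 called diaphragm members lie between -0.55 and -0.25, and the 14 called tibialis anterior members lie on both sides of 0, from -0.40 to 0.46.

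All 14 members called in the tibialis anterior moved the same way in 4 of 4 cohorts, and so did 10 of the 12 called in the diaphragm. The exceptions were Acadm and Etfdh, which were 0.05 and 0.02 higher in PDX diaphragm in cohort 3. Because members were called on the mean of these 4 cohort effects, a shared sign is partly built in. How many of all called genes shared their sign was not counted. No member was called for a difference between the 4 cohort effects by limma's moderated F test (adjusted p under 0.05), where 0.0129% of all genes were called in the tibialis anterior and 0.00431% in the diaphragm. Without adjustment, 2 members had an F test p under 0.05 in the tibialis anterior (Acadvl and Pnpla2) and 5 in the diaphragm (Acot2, Eci2, Ucp3, Decr1 and Echs1).

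Whether the tumour effect differed between the muscles was tested on the difference itself, the diaphragm effect minus the tibialis anterior effect. This difference was called for 3 members, all lower in the diaphragm: Mlycd, Echs1 and Etfa. Among all genes 6.33% were called, 2.67% lower and 3.66% higher. Without adjustment, 11 members had a p under 0.05, again all lower. How many of all genes did was not counted. The median over the members was -0.195, against -0.0096 over all genes.

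Mlycd encodes malonyl-CoA decarboxylase, which removes the inhibitor of carnitine palmitoyltransferase 1. It had its lowest, median and highest values at 5.84, 6.47 and 6.91 in PDX diaphragm and at 6.21, 6.60 and 7.05 in sham diaphragm. Within the tibialis anterior, these values were 5.99, 6.53 and 7.32 in PDX mice and 5.70, 6.25 and 6.62 in sham mice. The groups overlapped in both muscles, but 8 of 17 PDX tibialis anterior arrays lay above the highest sham array and 5 of 17 PDX diaphragm arrays lay below the lowest. The tumour effect was -0.19 (SE 0.09) in the diaphragm and 0.32 (SE 0.10) in the tibialis anterior, and their difference was -0.51 (SE 0.14, limma adjusted p 0.0143).

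Echs1 encodes the short-chain enoyl-CoA hydratase, the hydration step of the spiral. Its lowest, median and highest values were 8.22, 8.64 and 8.88 in PDX diaphragm and 8.51, 8.72 and 8.93 in sham diaphragm. They were 7.83, 8.10 and 8.68 in PDX tibialis anterior and 7.74, 7.94 and 8.26 in sham tibialis anterior. Here 6 PDX diaphragm arrays fell below every sham array, and 4 PDX tibialis anterior arrays exceeded every sham array. The effect was -0.13 (SE 0.05) in the diaphragm and 0.21 (SE 0.06) in the tibialis anterior, a difference of -0.35 (SE 0.08, limma adjusted p 0.00222). Echs1 was the one spiral enzyme that rose in the tibialis anterior.

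Etfa encodes the alpha subunit of the electron transfer flavoprotein, which takes electrons from the acyl-CoA dehydrogenases. Its values ran from 8.11 to 8.89 with a median of 8.46 in PDX diaphragm and from 8.51 to 8.95 with a median of 8.83 in sham diaphragm. In tibialis anterior muscle they ran from 7.67 to 8.33 with a median of 8.09 in PDX mice and from 7.85 to 8.22 with a median of 8.01 in sham mice. The diaphragm effect was -0.26 (SE 0.07) and the tibialis anterior effect 0.05 (SE 0.06), a difference of -0.31 (SE 0.09, limma adjusted p 0.0347).

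Without the 15 arrays above the hepatocyte marker limit, the difference between muscles was -0.62 for Mlycd (limma adjusted p 0.0201), -0.32 for Echs1 (0.0612) and -0.30 for Etfa (0.181). With the mean of the adipocyte markers in the fit, it was -0.43 for Mlycd (adjusted p 0.0967), -0.31 for Echs1 (0.0264) and -0.24 for Etfa (0.224). The sizes therefore stayed between -0.24 and -0.62, and only 1 of the 3 was still called in each of these fits. Of all genes, 4.33% were called without those arrays and 3.16% with the adipocyte mean.

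The bases before the transcript start are shown for Echs1 and Etfa, members whose tumour effect differed between the muscles and that hold the match described next, and for Ucp3, the member that was lower in sham diaphragm than in sham tibialis anterior. Capitals mark a match, with up to 2 mismatches, to the direct repeat AGGTCA, 1 base of any kind, AGGTCA, the element that PPAR and RXR bind. The 250 bases are from RefSeq on GRCm38.p6, written 5' to 3' on the strand of the gene: chr7:140116422-140116671, minus strand, for Echs1, chr9:55512244-55512493, minus strand, for Etfa and chr7:100472741-100472990, plus strand, for Ucp3.
Echs1: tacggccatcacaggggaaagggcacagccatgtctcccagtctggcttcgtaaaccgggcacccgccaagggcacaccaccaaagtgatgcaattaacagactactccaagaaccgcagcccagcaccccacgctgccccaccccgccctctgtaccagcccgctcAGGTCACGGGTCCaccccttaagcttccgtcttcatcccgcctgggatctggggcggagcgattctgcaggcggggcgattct
Etfa: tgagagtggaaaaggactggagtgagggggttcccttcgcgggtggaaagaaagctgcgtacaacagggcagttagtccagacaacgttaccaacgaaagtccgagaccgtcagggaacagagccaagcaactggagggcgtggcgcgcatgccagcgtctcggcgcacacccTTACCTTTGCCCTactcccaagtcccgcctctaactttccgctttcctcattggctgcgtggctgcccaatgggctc
Ucp3: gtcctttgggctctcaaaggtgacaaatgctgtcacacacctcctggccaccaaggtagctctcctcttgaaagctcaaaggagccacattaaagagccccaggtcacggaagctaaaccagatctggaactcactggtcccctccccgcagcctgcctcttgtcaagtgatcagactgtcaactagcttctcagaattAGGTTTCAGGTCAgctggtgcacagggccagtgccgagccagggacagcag

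A match on either strand with up to 2 mismatches lay in the promoter windows of 5 of the 25 members with a window: Cd36, Echs1, Etfa, Plin2 and Ucp3. These 25 members have 29 windows of 250 bases, of which 5 held a match, and 3.24% of all 32851 RefSeq windows did over the same 250 bases. These 5 genes did not move alike in PDX mice, since Cd36 and Echs1 rose in the tibialis anterior, Etfa fell in the diaphragm, and Plin2 and Ucp3 were called in neither muscle. The window of Mlycd, which had the largest called difference between the muscles, held no match and is not shown. The ERR element TCAAGGTCA was in 0 of the 25 members' windows and in 0.387% of all windows. The glucocorticoid element (AGAACA, 3 bases of any kind, TGTTCT), with up to 2 mismatches, was in 0 of 25 members' windows and in 1.56% of all windows. A match is a run of letters and not a shown binding site.

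Among the uptake genes, both fatty acid carriers rose in the tibialis anterior of PDX mice and none of the 4 was called in the diaphragm. Slc27a1, the transporter FATP1, had a lowest, median and highest value of 7.37, 7.78 and 7.998 in PDX tibialis anterior and of 7.02, 7.39 and 7.71 in sham tibialis anterior. Of 17 PDX arrays, 12 lay above the highest sham array. The difference was 0.39 (SE 0.07, limma adjusted p 0.000143), or 1.31-fold. In the diaphragm Slc27a1 ran from 7.23 to 8.76 (median 7.94) in PDX mice and from 7.30 to 8.22 (median 7.98) in sham mice, a difference of -0.02 (SE 0.12), with 3 PDX arrays above and 1 below every sham array. Cd36, the main fatty acid translocase, ran from 8.998 to 9.79 (median 9.57) in PDX tibialis anterior and from 9.04 to 9.52 (median 9.31) in sham tibialis anterior. The difference was 0.22 (SE 0.07, limma adjusted p 0.0225), with 11 of 17 PDX arrays above every sham array and 1 below, and the diaphragm difference was 0.03 (SE 0.09). Without the arrays with hepatocyte RNA the Cd36 difference in the tibialis anterior was 0.17 (adjusted p 0.163), and without PDX cohort 1 replicate 2 its adjusted p was 0.0535.

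Lpl encodes lipoprotein lipase, which frees fatty acids from circulating triglyceride, and Angptl4 encodes its secreted inhibitor. Lpl differed by -0.04 (SE 0.08) in the diaphragm and by 0.17 (SE 0.07, limma adjusted p 0.142) in the tibialis anterior. Angptl4 ran from 4.25 to 7.02 (median 5.31) in PDX diaphragm and from 3.74 to 7.001 (median 5.02) in sham diaphragm, a difference of 0.38 (SE 0.31, adjusted p 0.537). In the tibialis anterior it ran from 3.15 to 5.96 (median 3.99) in PDX mice and from 3.38 to 5.08 (median 3.76) in sham mice, close to the median of all genes, with a difference of 0.10 (SE 0.19, adjusted p 0.835). The Angptl4 spread within each group was larger than the difference between groups in both muscles. In PDX diaphragm the 6 arrays with hepatocyte RNA had an Angptl4 median of 5.83, against 5.02 in the 11 others.

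Of the 4 lipid droplet and lipolysis genes, Plin5 fell in the diaphragm and Pnpla2 rose in the tibialis anterior. Plin5 is the droplet coat protein that ties droplets to mitochondria in oxidative fibres. Its lowest, median and highest values were 5.99, 6.59 and 7.27 in PDX diaphragm and 6.69, 7.21 and 7.63 in sham diaphragm. Of the PDX arrays, 9 of 17 lay below every sham array. The difference was -0.55 (SE 0.11, limma adjusted p 0.00102), 0.683-fold, and it was the largest among the called diaphragm members. Over tibialis anterior arrays, Plin5 ran from 5.16 to 6.28 (median 5.85) in PDX mice and from 5.56 to 6.48 (median 5.93) in sham mice, a difference of -0.11 (SE 0.11, adjusted p 0.621). The test of the difference between the muscles gave -0.44 (SE 0.16, adjusted p 0.085), so a muscle-specific effect was not shown.

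Pnpla2 encodes adipose triglyceride lipase, the first enzyme of triglyceride breakdown, and rose in the tibialis anterior. It had a lowest, median and highest value of 8.88, 9.36 and 10.30 in PDX tibialis anterior and of 8.49, 8.82 and 9.23 in sham tibialis anterior. Of 17 PDX arrays, 10 exceeded every sham array, and 7 of 12 sham arrays were below every PDX array. The difference was 0.46 (SE 0.09, limma adjusted p 0.000508), or 1.37-fold, with 1.02 in cohort 3 and 0.23 to 0.32 in the other cohorts. In the diaphragm Pnpla2 ran from 8.64 to 10.001 (median 9.32) in PDX mice and from 8.63 to 9.57 (median 9.14) in sham mice, a difference of 0.09 (SE 0.10, adjusted p 0.709). Lipe, the hormone-sensitive lipase, differed by -0.12 (SE 0.13) in the diaphragm and by 0.13 (SE 0.07) in the tibialis anterior, and was called in neither.

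Plin2, the general droplet coat protein, depended on 1 array in the tibialis anterior. Over all arrays its values ran from 5.97 to 8.45 (median 6.74) in PDX mice and from 6.78 to 7.96 (median 7.06) in sham mice. Of the 17 PDX arrays 9 lay below every sham array and 1 lay above every one. The difference was -0.38 (SE 0.16, limma adjusted p 0.124), and without PDX cohort 3 replicate 1, the highest array, it was -0.48 (SE 0.08, adjusted p 0.000144). In the diaphragm Plin2 ran from 7.09 to 8.97 (median 7.71) in PDX mice and from 6.99 to 8.81 (median 7.78) in sham mice, a difference of 0.03 (SE 0.18).

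That array, PDX cohort 3 replicate 1 of the tibialis anterior, stood apart in many members. It had the highest value of the 29 tibialis anterior arrays for 8 members, among them Plin2, Pnpla2, Angptl4, Ucp3, Cpt1a, Mlycd, Ppara and Ppard, and the lowest value for 10, among them Acaa2, Cpt2, Hadh, Acadm, Eci1 and the 3 electron transfer genes. The count of called members in the tibialis anterior was 14 with it and 14 without it, since Plin2 was gained and Etfdh (adjusted p 0.0512) was lost. In the diaphragm, PDX cohort 2 replicate 1, an array with hepatocyte RNA (marker mean 9.93), held the lowest value for 13 members. Without it 12 diaphragm members were called, as with it.

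**Figure D2:**
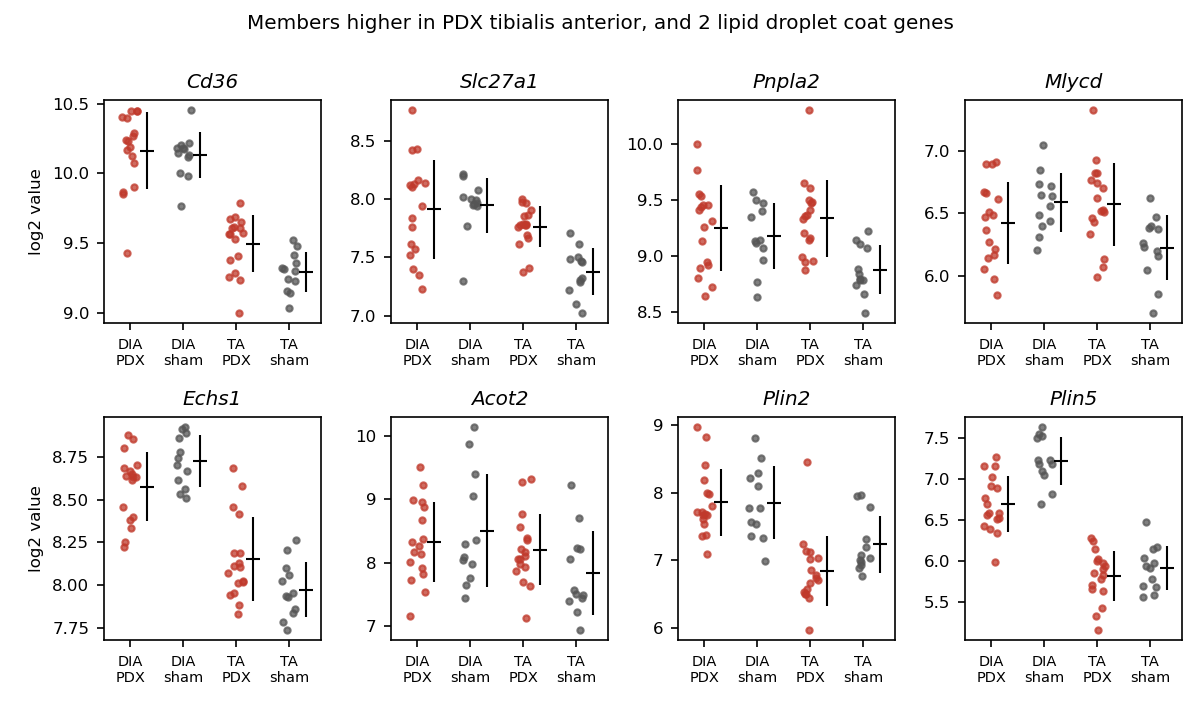
Log2 values of single arrays for the 6 members that rose in PDX tibialis anterior and for Plin2 and Plin5, in diaphragm (DIA) and tibialis anterior (TA), with each group's mean and SD as a black bar. PDX points lie mostly above sham points in the tibialis anterior for Slc27a1 and Pnpla2, 1 PDX array is far above the rest for Plin2 at 8.45, and Plin5 is shifted down in PDX diaphragm.

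In the carnitine shuttle, the inner enzyme Cpt2 fell. Of the outer enzyme, only the liver form Cpt1a was measured, and it was not called. Cpt1b had no named probe set, so its change is not known. Cpt2, which returns acyl groups to coenzyme A inside the matrix, had a lowest, median and highest value of 7.29, 7.85 and 8.21 in PDX diaphragm and of 7.95, 8.13 and 8.44 in sham diaphragm. Of the PDX diaphragm arrays 12 of 17 lay below every sham array, and the difference was -0.34 (SE 0.08, limma adjusted p 0.00331). Within the tibialis anterior, Cpt2 ran from 6.87 to 7.44 (median 7.26) in PDX mice and from 7.19 to 7.68 (median 7.46) in sham mice, a difference of -0.20 (SE 0.06, adjusted p 0.0172). Crat, carnitine acetyltransferase, which buffers acetyl-CoA, differed by -0.24 (SE 0.09, adjusted p 0.0693) in the diaphragm and by -0.05 (SE 0.04) in the tibialis anterior.

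Cpt1a encodes the liver form of the outer carnitine palmitoyltransferase, which sets the pace of fatty acid entry. It ran from 5.70 to 8.79 (median 6.54) in PDX diaphragm and from 5.66 to 7.51 (median 6.35) in sham diaphragm, a difference of 0.25 (SE 0.29, limma adjusted p 0.70). The high diaphragm values belonged to arrays with hepatocyte RNA. In PDX mice Cpt1a ran from 6.77 to 8.79 in those 6 arrays and from 5.70 to 6.69 in the 11 others, and in sham mice from 6.61 to 7.51 in 5 arrays and from 5.66 to 6.41 in the 7 others. The Cpt1a values of arrays above and below that marker limit did not overlap in either group. In tibialis anterior muscle Cpt1a ran from 4.43 to 5.94 (median 5.02) in PDX mice and from 4.57 to 5.42 (median 5.09) in sham mice, a difference of -0.11 (SE 0.11, adjusted p 0.659).

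**Figure D3:**
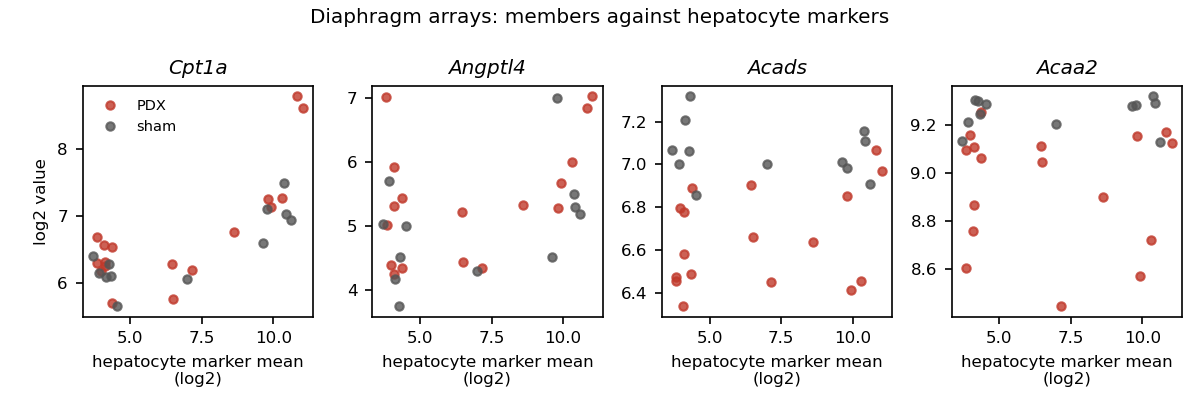
Log2 values of Cpt1a, Angptl4, Acads and Acaa2 in the 29 diaphragm arrays against each array's mean over 15 hepatocyte markers, with PDX and sham arrays in separate colours. Cpt1a and, less evenly, Angptl4 are high where the marker mean is high, whereas most PDX arrays lie below the sham arrays for Acads and Acaa2 at low and at high marker means.

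The acyl-CoA dehydrogenases catalyse the first step of each turn and differ in the chain length they accept. In the diaphragm 3 of 4 fell, and the fourth, Acadl for long chains, differed by -0.13 (SE 0.07, limma adjusted p 0.251). Acads, the short-chain enzyme, had a lowest, median and highest value of 6.34, 6.64 and 7.07 in PDX diaphragm and of 6.86, 7.04 and 7.32 in sham diaphragm. Of 17 PDX arrays, 13 were below every sham array, and the difference of -0.41 (SE 0.07, adjusted p 0.000516) amounts to 0.752-fold. Its tibialis anterior values ran from 6.14 to 6.73 (median 6.45) in PDX mice and from 6.47 to 6.78 (median 6.64) in sham mice, a difference of -0.21 (SE 0.06, adjusted p 0.0098).

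Acadvl, the very-long-chain enzyme of the inner membrane, ran from 8.25 to 8.998 (median 8.85) in PDX diaphragm and from 8.82 to 9.25 (median 9.08) in sham diaphragm, a difference of -0.31 (SE 0.08, limma adjusted p 0.00783). In the tibialis anterior it ran from 7.93 to 8.55 (median 8.21) in PDX mice and from 8.29 to 8.76 (median 8.45) in sham mice, a difference of -0.29 (SE 0.05, adjusted p 0.000463), and 12 of 17 PDX arrays lay below every sham array. Its tibialis anterior effect was -0.69 in cohort 1 and between -0.25 and -0.10 in the others. Acadm, the medium-chain enzyme, ran from 9.56 to 10.62 (median 10.39) in PDX diaphragm and from 10.21 to 10.97 (median 10.61) in sham diaphragm. It fell by 0.26 (SE 0.08, adjusted p 0.0434), a call that was lost in 18 of the 29 fits that left out 1 array. Within the tibialis anterior, Acadm differed by -0.03 (SE 0.06) and Acadl by 0.09 (SE 0.06).

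Of the later spiral enzymes, Hadha, Hadh and Acaa2 fell in both muscles. Acaa2, the thiolase that releases acetyl-CoA, gave the largest fall in the tibialis anterior. Its lowest, median and highest values there were 6.85, 7.69 and 8.05 in PDX mice and 7.89, 8.04 and 8.18 in sham mice, and 15 of 17 PDX arrays lay below every sham array. The difference was -0.40 (SE 0.08, limma adjusted p 0.000979), or 0.76-fold. In the diaphragm Acaa2 ran from 8.44 to 9.26 (median 9.06) in PDX mice and from 9.13 to 9.32 (median 9.28) in sham mice, with 13 of 17 PDX arrays below every sham array and a difference of -0.32 (SE 0.07, adjusted p 0.00242). The PDX arrays spread more widely than the sham arrays, with an SD of 0.247 in PDX and 0.0658 in sham diaphragm, and of 0.285 in PDX and 0.0956 in sham tibialis anterior.

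Hadh, the short-chain 3-hydroxyacyl-CoA dehydrogenase, ran from 9.42 to 10.22 (median 9.93) in PDX diaphragm and from 9.97 to 10.45 (median 10.22) in sham diaphragm, a difference of -0.30 (SE 0.07, limma adjusted p 0.00342). In tibialis anterior muscle it ran from 8.57 to 9.31 (median 9.12) in PDX mice and from 9.03 to 9.87 (median 9.38) in sham mice, a difference of -0.32 (SE 0.06, adjusted p 0.000373). Hadha, the alpha subunit of the trifunctional protein for long chains, ran from 9.95 to 10.69 (median 10.35) in PDX diaphragm and from 10.30 to 10.78 (median 10.62) in sham diaphragm. It fell by 0.32 (SE 0.08, adjusted p 0.00728) in the diaphragm. Tibialis anterior values of Hadha ran from 9.24 to 9.88 (median 9.60) in PDX mice and from 9.68 to 10.05 (median 9.80) in sham mice, a difference of -0.23 (SE 0.05, adjusted p 0.00292). The diaphragm effect minus the tibialis anterior effect was 0.07 (SE 0.10) for Acaa2, 0.02 (SE 0.09) for Hadh and -0.08 (SE 0.09) for Hadha, each smaller than its SE.

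**Figure D4:**
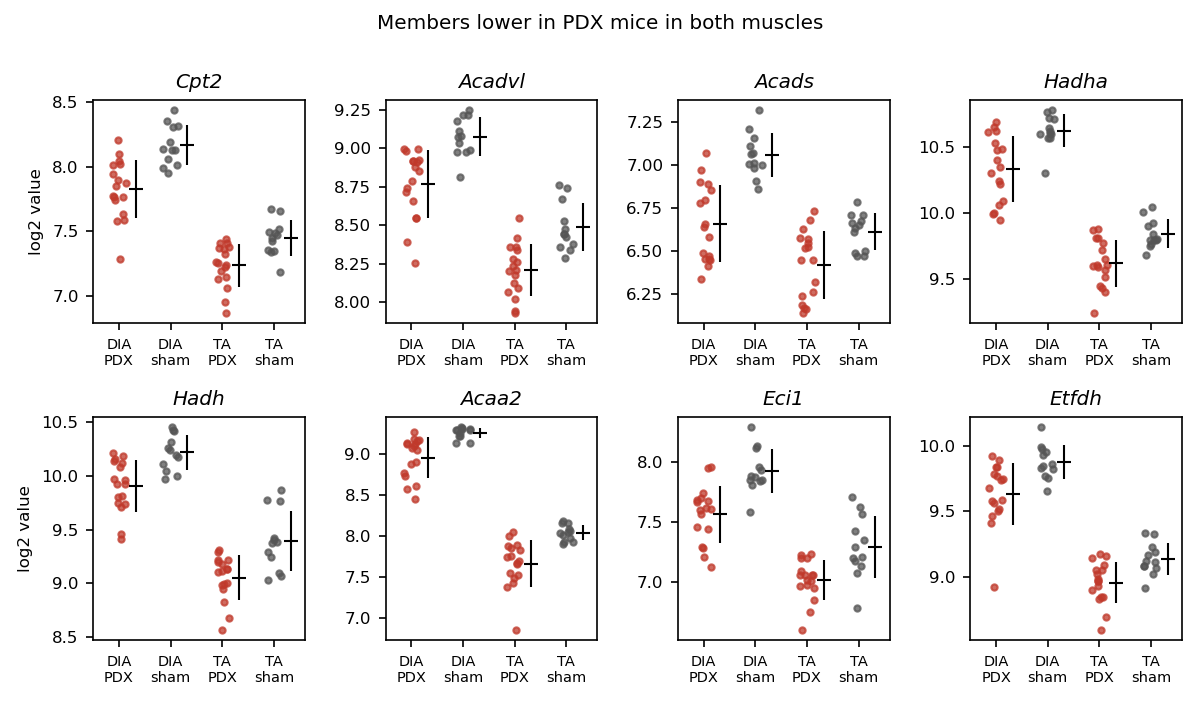
Log2 values of single arrays for the 8 members that fell in PDX mice in both muscles, in diaphragm (DIA) and tibialis anterior (TA), with each group's mean and SD as a black bar. PDX points lie below most sham points of the same muscle, and the groups overlap for every gene.

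Unsaturated fatty acids need helper enzymes. Eci1, the mitochondrial enoyl-CoA isomerase, ran from 7.13 to 7.96 (median 7.61) in PDX diaphragm and from 7.59 to 8.29 (median 7.88) in sham diaphragm, a difference of -0.37 (SE 0.07, limma adjusted p 0.00133). Over tibialis anterior arrays, it ran from 6.60 to 7.24 (median 7.06) in PDX mice and from 6.79 to 7.71 (median 7.25) in sham mice, a difference of -0.27 (SE 0.06, adjusted p 0.00372). Eci2, the second isomerase, which also works in peroxisomes, had a difference of the opposite sign, 0.12 (SE 0.10, adjusted p 0.516) in the diaphragm and 0.27 (SE 0.09, adjusted p 0.0523) in the tibialis anterior. Leaving out 1 array brought Eci2 under the threshold in 8 of 29 tibialis anterior fits, with adjusted p from 0.0123 to 0.103 over all 29. Decr1, the dienoyl-CoA reductase, differed by -0.17 (SE 0.07, adjusted p 0.144) in the diaphragm and by -0.10 (SE 0.07, adjusted p 0.46) in the tibialis anterior.

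All 3 electron transfer genes fell in the diaphragm, by 0.26 (Etfa), 0.28 (Etfb) and 0.25 (Etfdh), with SEs of 0.07, 0.08 and 0.07. Etfb is the beta subunit of the flavoprotein and Etfdh the oxidoreductase that passes its electrons to ubiquinone. In PDX diaphragm 9 of 17 Etfb arrays, running from 8.10 to 8.75 (median 8.49), were below every sham array (8.50 to 9.24, median 8.71). Etfdh ran from 8.60 to 9.18 (median 8.97) in PDX tibialis anterior and from 8.92 to 9.34 (median 9.12) in sham tibialis anterior. It fell there by 0.18 (SE 0.06, limma adjusted p 0.0489), a call lost in 24 of 29 fits without 1 array, and Etfb differed by -0.11 (SE 0.06, adjusted p 0.279).

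Acot2, the mitochondrial thioesterase that splits long acyl-CoA back to free acid, rose in the tibialis anterior. Its lowest, median and highest values were 7.13, 8.11 and 9.32 in PDX tibialis anterior and 6.94, 7.54 and 9.23 in sham tibialis anterior. Only 2 PDX arrays exceeded every sham array, since cohorts differed more than groups: sham arrays averaged 8.72 in cohort 1 and 7.19 in cohort 3. Within cohorts Acot2 was higher in PDX mice in all 4, by 0.26, 0.08, 1.05 and 0.39 in cohorts 1 to 4, and the mean was 0.44 (SE 0.14, limma adjusted p 0.0307). In the diaphragm Acot2 ran from 7.17 to 9.50 (median 8.26) in PDX mice and from 7.44 to 10.14 (median 8.19) in sham mice, a difference of -0.11 (SE 0.16). There the cohort effects were -0.76, -0.34, 0.87 and -0.20, with an F test adjusted p of 0.528.

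Ucp3, an inner membrane carrier of skeletal muscle whose expression follows fatty acid supply, was called in neither muscle. It ran from 4.60 to 7.32 (median 6.28) in PDX diaphragm and from 5.76 to 7.50 (median 6.47) in sham diaphragm, a difference of -0.37 (SE 0.18, limma adjusted p 0.227). In the tibialis anterior it ran from 6.69 to 8.97 (median 7.82) in PDX mice and from 7.19 to 8.20 (median 7.67) in sham mice, a difference of 0.14 (SE 0.18, adjusted p 0.726). PDX arrays reached both lower and, in the tibialis anterior, higher than sham arrays.

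The receptors were not called either. Ppara ran from 5.61 to 7.70 (median 6.44) in PDX diaphragm and from 6.20 to 7.59 (median 6.96) in sham diaphragm, a difference of -0.45 (SE 0.16, limma adjusted p 0.0695) that was negative in 4 of 4 cohorts. With the hepatocyte marker mean in the fit it was -0.45 (SE 0.12, adjusted p 0.00856), and with the adipocyte marker mean it was -0.30 (SE 0.18, adjusted p 0.43). In tibialis anterior muscle Ppara ran from 3.95 to 6.08 (median 4.99) in PDX mice and from 4.55 to 5.89 (median 5.24) in sham mice, a difference of -0.20 (SE 0.16). Ppard, the PPAR form that prevails in muscle, ran from 5.21 to 6.31 (median 5.82) in PDX diaphragm and from 5.46 to 6.16 (median 6.02) in sham diaphragm, a difference of -0.19 (SE 0.10, adjusted p 0.254). Tibialis anterior values of Ppard ran from 5.89 to 7.999 (median 6.31) in PDX mice and from 5.73 to 6.46 (median 6.27) in sham mice. The difference was 0.14 (SE 0.13), and 0.06 (SE 0.07) without PDX cohort 3 replicate 1, the array at 7.999.

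Fewer members were called when arrays were left out or marker levels were fitted, while sizes changed less. Without the arrays with hepatocyte RNA, 18 diaphragm arrays remained and 4 members were called (Acaa2, Acads, Etfb and Plin5), with a median over the 12 genes of -0.327, against -0.312 in all arrays. With the adipocyte marker mean in the fit, 3 were called (Acads, Eci1 and Plin5) and the median of the 12 was -0.259. Acads was -0.46 (SE 0.11, limma adjusted p 0.02) without those arrays and -0.35 (SE 0.08, adjusted p 0.0154) with the adipocyte mean. A further fit left out cohort 1 and every array of cohorts 2 to 4 with a hepatocyte marker mean above 5. It gave 0 calls by limma and a median of -0.292 over the 12. There 13 members had an unadjusted p under 0.05, and how many of all genes did was not counted. Without cohort 1 alone, 2 of 30 diaphragm members were called (Acads and Hadh), and the median of the 12 was -0.271. That count was near the 6.47% of all genes called in this fit. Of all genes, 6.2% were called without the arrays with hepatocyte RNA and 5.35% with the adipocyte mean. Without cohort 1 and the arrays above a marker mean of 5, it was 2.82%.

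The tibialis anterior calls that held without the arrays with hepatocyte RNA were 8: Acaa2, Acads, Acadvl, Eci1, Hadh and Hadha fell, and Pnpla2 and Slc27a1 rose. There Mlycd was 0.29 (SE 0.11, limma adjusted p 0.0938) and Echs1 0.16 (SE 0.06, adjusted p 0.098). Mlycd also missed the threshold with the adipocyte mean in the fit (0.28, adjusted p 0.0622) and in 7 of 29 fits without 1 array, and Acot2 in 9 of 29. Without cohort 1, 6 were called (Acaa2, Hadh and Hadha lower, Acot2, Pnpla2 and Slc27a1 higher), and without cohort 4, 8. Of all genes, 9.64% were called without the arrays with hepatocyte RNA, 6.15% without cohort 1 and 9.07% without cohort 4. The part of macrophage, endothelial and slow fibre RNA in these results was not tested.

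In sham mice the diaphragm held more RNA of nearly every member than the tibialis anterior. The diaphragm was higher for 27 members and lower for 1, Ucp3, where 15.2% of all genes were higher and 24.5% lower (39.7% called in all). Crat and Ppard were not called. The median over members was 0.721, against -0.0851 over all genes. For 18 members, every sham diaphragm array lay above every sham tibialis anterior array, which was so for 2.62% of all genes (2.17% lay wholly below), and for 12 members the arrays overlapped. All 7 slow fibre markers were also higher in sham diaphragm (median difference 4.20), as were 15 of 15 hepatocyte, 8 of 9 adipocyte and 5 of 5 mesothelial markers. For the member differences, only hepatocyte RNA was looked at, by leaving out arrays. The adipocyte marker mean was centred within each muscle, so it could not take out a difference between muscles. With it in the fit, 8 of 9 adipocyte markers were still higher (median 1.94). The part of adipocyte, slow fibre and mesothelial RNA was not tested.

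Ppara had the largest difference, with sham values of 6.20 to 7.59 (median 6.96) in diaphragm and of 4.55 to 5.89 (median 5.24) in tibialis anterior. The difference was 1.73 (SE 0.18, limma adjusted p 6.3e-11), or 3.31-fold, and 1.55 (SE 0.22) without the arrays with hepatocyte RNA. Lpl ran from 10.91 to 11.43 (median 11.17) in sham diaphragm and from 9.32 to 10.15 (median 9.62) in sham tibialis anterior, a difference of 1.49 (SE 0.08) that was 1.58 (SE 0.09) without those arrays. Cpt1a was 1.44 (SE 0.25) higher in sham diaphragm over all arrays and 0.97 (SE 0.16) without the arrays with hepatocyte RNA. Plin5 was 1.31 (SE 0.12) higher, Acaa2 1.21 (SE 0.08) and Angptl4 1.12 (SE 0.29). Without the arrays with hepatocyte RNA, 25 members were called higher, and Plin2 (0.34, adjusted p 0.235) and Eci2 (0.25, adjusted p 0.109) were not. Of all 23185 genes, that fit called 5815 in either direction, and those higher were not counted apart. It did not even out hepatocyte RNA. The hepatocyte markers still had a median difference of 0.579, with 2 of 15 called higher in sham diaphragm.

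All 8 measured enzymes of the spiral were higher in sham diaphragm, Acaa2 by 1.21. The diaphragm exceeded the tibialis anterior by 0.45 (Acads), 0.59 (Acadvl), 0.79 (Acadm) and 0.88 (Acadl) among the dehydrogenases, and by 0.75 (Echs1), 0.78 (Hadha) and 0.83 (Hadh) among the next steps. The electron transfer genes were 0.65 (Etfb), 0.74 (Etfdh) and 0.77 (Etfa) higher, and the SEs of these 10 genes lay between 0.06 and 0.08. Uptake and lipolysis genes were 0.84 (Cd36), 0.57 (Slc27a1), 0.73 (Lipe) and 0.30 (Pnpla2) higher. Ucp3 ran from 5.76 to 7.50 (median 6.47) in sham diaphragm and from 7.19 to 8.20 (median 7.67) in sham tibialis anterior, a difference of -1.17 (SE 0.20, limma adjusted p 6.9e-06). The 8 genes that fell in both muscles of PDX mice were all among the 27 that were higher in sham diaphragm. With 27 of 30 members higher, most sets of 8 members would be. The same sham arrays also enter both comparisons, so no link between them was shown.

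**Figure D5:**
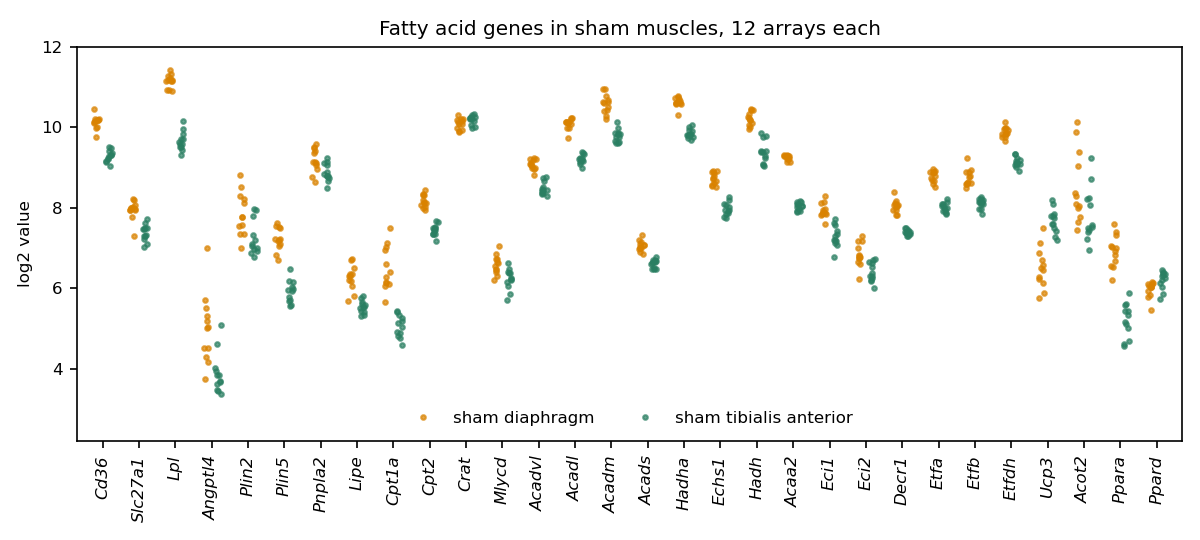
Log2 values of single sham arrays for the 30 members, with 12 diaphragm and 12 tibialis anterior arrays beside each other. The diaphragm points lie above the tibialis anterior points for most genes and below them for most arrays of Ucp3, and heights can be compared only within a gene.

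Beyond the members, 62 other measured genes of fatty acid handling were listed. Of these, 11 rose and 16 fell in the tibialis anterior, where 6.32% of all genes rose and 6.53% fell (median difference over the list -0.0492). The highest 4 called were Plin4, another droplet coat protein (0.97, SE 0.12), Pdk4, the kinase that turns off pyruvate dehydrogenase (0.76, SE 0.20), Klf15, a glucocorticoid-induced transcription factor (0.69, SE 0.10), and Acadsb, the short branched-chain dehydrogenase (0.38, SE 0.06). The lowest 4 called were Hacd1, a dehydratase of fatty acid elongation (-0.95, SE 0.12), Bdh1 (-0.80, SE 0.14) and Oxct1 (-0.62, SE 0.10), which burn ketone bodies, and Scd1, the stearoyl-CoA desaturase (-0.68, SE 0.21). In the diaphragm 2 rose, Acsl4 (0.31, SE 0.10), an acyl-CoA synthetase, and Cpt1c (0.25, SE 0.07), the brain form of CPT1, and 14 fell, where 5.89% of all genes rose and 6.58% fell (median difference over the list -0.197). Without the arrays with hepatocyte RNA 0 rose and 8 fell by limma (median -0.178), and with the adipocyte marker mean in the fit 0 rose and 6 fell (median -0.0546). Without cohort 1 and every array of cohorts 2 to 4 with a hepatocyte marker mean above 5, 0 rose and 5 fell (median -0.160). At an unadjusted p under 0.05 these settings had 24, 16 and 14 of the 62 genes. That share over all genes was not counted. At an adjusted p under 0.05 they called 6.2%, 5.35% and 2.82% of all genes in either direction. Over all diaphragm arrays, the lowest 4 called were Bdh1 (-0.57, SE 0.18), Acad11 (-0.57, SE 0.15), a dehydrogenase for very long chains, Acot13 (-0.56, SE 0.08), a thioesterase, and Oxct1 (-0.54, SE 0.12). Bdh1 and Oxct1 thus fell in both muscles, and their effects were not called different between them (adjusted p 0.678 and 0.869).

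The difference between the muscles was called for 10 of these 62 genes, 2 higher and 8 lower in the diaphragm, where 3.66% of all genes were higher and 2.67% lower. Without cohort 1 and every array of cohorts 2 to 4 with a hepatocyte marker mean above 5, limma called 0 of the 62. There 18 had an unadjusted p under 0.05, and the median was -0.187, against -0.164 in all arrays. With the adipocyte marker mean in the fit, limma called 0 higher and 8 lower (median -0.0272). The 4 lowest were Pdk4 (-1.10, SE 0.27, limma adjusted p 0.00668), Lpin1, a phosphatidate phosphatase (-0.79, SE 0.15), Klf15 (-0.79, SE 0.15) and Plin4 (-0.76, SE 0.18). Pdk4 had a lowest, median and highest value of 8.74, 9.89 and 10.73 in PDX diaphragm and of 9.55, 10.14 and 10.74 in sham diaphragm. Over tibialis anterior arrays, these were 8.34, 10.43 and 11.74 in PDX mice and 9.04, 9.46 and 10.27 in sham mice. The Pdk4 effect was -0.34 (SE 0.17, adjusted p 0.216) in the diaphragm and 0.76 in the tibialis anterior. Those called higher were Scd2, a desaturase (0.71, SE 0.18), and Cpt1c (0.37, SE 0.10).

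In sham mice 38 of the 62 were higher in the diaphragm and 7 lower, where 15.2% of all genes were higher and 24.5% lower. The highest were the lipogenic genes Scd1 (3.40, SE 0.35), Fasn (3.05, SE 0.29), Dgat2 (2.74, SE 0.15) and Fads2 (2.46, SE 0.41). Without the arrays with hepatocyte RNA these were 3.14 (Scd1), 2.90 (Fasn), 2.61 (Dgat2) and 1.45 (Fads2). The lowest were Acsl6 (-1.42, SE 0.09), Rxrg, a partner of the PPARs (-1.37, SE 0.12), Vldlr, the very-low-density lipoprotein receptor (-1.02, SE 0.10), and Rxra (-0.45, SE 0.10).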

How the data were processed

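RNA of diaphragm and tibialis anterior was hybridised to Affymetrix arrays, per the labels' protocols. The deposited log2 values of 25206 probe sets on 58 arrays were made by the authors with RMA (affy 1.36.1, R 2.15.1), per the submitters' processing notes, and RMA's between-array scaling could narrow shifts shared by most genes. That they are log2 was read from the values. Through the platform annotation 23185 probe sets named 1 gene each. The table had 0 columns of other samples. No depth applies, and the number of arrays limits the precision.

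In R 4.3.3 with limma 3.58.1 (statmod 1.5.0), each muscle was fitted with a mean per cohort and treatment. The effect was the equally weighted mean of PDX minus sham over 4 cohorts, two-sided. Differences between muscles came from 1 fit of 58 arrays with 16 means, with no filter on dim genes. Adjusted p-values are Benjamini-Hochberg over all named genes. In simulated data with independent noise and no cohort differences, the fits of each muscle recovered the mean size of known PDX changes. The same changes were given to both muscles, so recovery of a difference between muscles was not tested. Every member was described; values of all groups were given for genes called with a difference of at least 0.3 and for Cpt1a, Ppara, Ppard, Ucp3 and Angptl4, and beyond that rule for some called genes with smaller differences; of the wider list, up to 4 highest and 4 lowest were named. Members and lists were chosen with earlier results of these data known. Alternatives covered scaling, filters, variance, array weights, blocks, markers, and arrays and cohorts left out.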

Additional observations from a re-analysis of the deposited data

Results flagged for a closer look

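In 21 of 180 groups of 4 or 5 arrays of 1 cohort, a member's highest or lowest array was further from its neighbours than Dixon's critical value allows, where chance alone picks out about 1 in 20 groups. Of these, 6 belonged to tibialis anterior PDX cohort 3 replicate 1: Angptl4 at 5.96, Plin2 at 8.45, Pnpla2 at 10.30, Ppara at 6.08 and Ppard at 7.999 were high, and Etfa at 7.67 was low. Another 5 belonged to diaphragm PDX cohort 3 replicate 4, an array with hepatocyte RNA: Cpt1a at 8.62 was high, and Cd36 at 9.85, Etfb at 8.19, Hadha at 10.09 and Lpl at 10.80 were low.

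In the other diaphragm groups, Echs1 stood out at 8.86 (PDX cohort 3 replicate 2), Eci2 at 7.79 (PDX cohort 4 replicate 3) and Pnpla2 at 10.001 (PDX cohort 3 replicate 5), all high. In the tibialis anterior, Echs1 was high at 8.42 and Hadh low at 8.83 in PDX cohort 2 replicate 1, and Slc27a1 was high at 7.97 in PDX cohort 3 replicate 3. Low single arrays there were Acadl at 9.17 (PDX cohort 3 replicate 4), Acads at 6.26 (PDX cohort 4 replicate 2), Cd36 at 9.26 (PDX cohort 4 replicate 3) and Eci2 at 6.04 (PDX cohort 3 replicate 5).

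The tumour effect was lower in the diaphragm than in the tibialis anterior, by limma's test of the difference itself, for Mlycd (-0.51), Echs1 (-0.35) and Etfa (-0.31).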

How the results depend on the processing

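Counts of called members changed with the arrays and terms in the fit. In the tibialis anterior 14 of 30 were called, where 12.8% of all genes were. This became 8 without arrays with hepatocyte RNA (9.64% of all genes), 6 without cohort 1 (6.15%) and 8 without cohort 4 (9.07%). With the 4 cohort differences as replicates it was 2 (4.84%). In the diaphragm 12 of 30 were called, where 12.5% of all genes were. This became 4 without arrays with hepatocyte RNA (6.2% of all genes) and 3 with the adipocyte marker mean as covariate (5.35%). It was 2 without cohort 1 (6.47%) and 1 with cohort differences as replicates (4.39%). Counts of 2 and 1 of 30 are near the share over all genes. A stricter limit, chosen after seeing the data, left out cohort 1 and every array of cohorts 2 to 4 with a hepatocyte marker mean above 5. It left 0 by limma, where 2.82% of all genes were called at an adjusted p under 0.05. At an unadjusted p under 0.05 it had 13, and the share of all genes at that limit was not counted. For the difference between muscles 3 were called, where 6.33% of all genes were. It was 6 with array weights (11.6% of all genes), 1 without arrays with hepatocyte RNA (4.33%) and 1 with the adipocyte covariate (3.16%). Limma called 0 under the stricter hepatocyte limit (1.35% of all genes), without cohort 1 (2.29%) and without cohort 2 (3.04%). At an unadjusted p under 0.05 these had 7, 9 and 6, again without a count over all genes. These fits have fewer arrays or other terms, and beyond that the cause was not tested. Leaving out single arrays gave 10 to 15 in the tibialis anterior, 11 to 13 in the diaphragm, 2 to 6 for the difference (6 without diaphragm PDX cohort 4 replicate 1, 5 without diaphragm sham cohort 3 replicate 1), 27 to 29 of 30 in sham muscles and 0 for the cohort F tests. In those fits 2522 to 3362 of all 23185 genes were called in the tibialis anterior and 2430 to 3047 in the diaphragm. For the difference it was 1253 to 1731, and in sham muscles 8358 to 9675. The sham count of members stayed within 25 to 28 under the other alternatives, where 4340 to 11877 genes were called. No called member reversed its direction in any alternative. Over the fits without 1 array, adjusted p ran from 0.0159 to 0.0755 for Mlycd and from 0.00894 to 0.0748 for Acot2 in the tibialis anterior, and from 0.00842 to 0.06 for the Etfa difference between muscles.

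The title number was used as replicate block by taking PDX minus sham arrays of equal number within a cohort. PDX arrays whose number had no sham array were left out, and equal numbers of sham and PDX mice name different animals. With this block, 7 members were called in the tibialis anterior and 12 in the diaphragm. Of all 23185 genes, this block called 2237 and 2747. Same-numbered sham and PDX arrays of a muscle had r from -0.586 to 0.647 (24 pairs, 5 over 0.1, 6 best matched by their own number). Same-numbered arrays of both muscles had r from -0.222 to 0.222 (29 pairs, 4 over 0.1, 15 best matched by their own number). In cohort 2 all 8 pairs of muscles matched their own number best, with r from 0.0174 to 0.222, a hint from the data and not from the design. Since the labels do not state pairs and not every pair passed 0.1, a limit of choice, the numbers were not taken as pairs. How many own-number matches would arise without pairing was not worked out, so pairing was not settled. A block between muscles gave 2 (fixed) or 3 (random) for the difference, where 1329 and 1491 of all genes were called. For sham muscles it gave 28, where 8994 (fixed) and 9288 (random) of all genes were called.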
